A study of Mus musculus with 6 samples.

Results

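Collagen chains are the protein strands that wind 3 together into the rope-like molecules of the extracellular matrix, and each chain has its own gene. The chains described here are the rows of the expression table whose gene symbol reads Col, a type number, a and a chain number, which were 44 of 46095 genes. They were sorted by type into 11 fibrillar chains (types 1, 2, 3, 5, 11, 24 and 27), 6 basement membrane chains (type 4), 6 beaded filament chains (type 6) and 21 chains of other types. Levels were measured by RNA sequencing in 3T3-L1 cells, fibroblasts of mouse embryo origin that hormones in culture can turn into fat-storing cells. One group of 3 samples had received flavonoids of the climbing plant Smilax glabra at 0.125 μg/mL, and the other group of 3 was untreated. All 6 samples carry the label adipocytes and were collected at day 8 of differentiation. The question put to the chains was which of them differed between flavonoid-treated and untreated cells.

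Fibrillar collagens pack side by side into the cross-striated fibres that give tissue its tensile strength, while type IV collagen forms the sheet-like network of basement membranes. Type VI collagen makes beaded filaments that link cells to the surrounding fibres, and adipose tissue is rich in it. Differentiating fat cells are known to exchange a fibroblast matrix rich in fibrillar collagen for a pericellular basement membrane that wraps each adipocyte. Procollagen chains are hydroxylated and folded in the endoplasmic reticulum, exported, trimmed outside the cell and crosslinked by lysyl oxidases.

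The values are FPKM, fragments scaled by transcript length and by library depth, so levels of different chains are compared here on a scale per length. Fragments recovered from the steps between values totalled 21952064 to 26355863 per library. Separate cultures are not stated for the 3 samples of a group, so the spread behind each p-value is that of these samples and could be technical. The libraries also differed by gene length. In genes over 6 kb the median log2 deviation from the gene's mean was 0.014, -0.014 and -0.189 in flavonoid replicates 1, 2 and 3, and -0.233, 0.064 and 0.387 in untreated replicates 1, 2 and 3. Collagen genes are long, with 13 of the 21 tested chains in that length class, and untreated replicate 3 was the highest of the 3 untreated samples for 20 of the 21. The label adipocytes was checked on a marker list. Of 10 adipocyte markers 4 averaged at least 1 FPKM and none of these passed the test, while Adipoq, Plin1, Cd36, Slc2a4, Lep and Cidec lay under 1 FPKM. The summed level of the 10 markers was 344.9 to 517.8 FPKM with flavonoids and 385.2 to 414.7 FPKM in untreated cells. Most of that sum was Fabp4 and Lpl, whose means differed in opposite directions. Fabp4 averaged 169.7 FPKM with flavonoids and 219.3 FPKM in untreated cells, and Lpl averaged 262.2 and 163.3 FPKM. All 8 fibroblast and preadipocyte markers averaged at least 1 FPKM.

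Of the 44 chains, 21 averaged at least 1 FPKM over the 6 samples and were tested, 23 lay under that level, and 5 of the 23 were listed at 0 in every sample. With flavonoids, 6 of the 21 tested chains fell and 0 rose, where 5.13% of all 11464 tested genes fell and 4.86% rose (limma fitted to log2(FPKM + 1), with p adjusted by Benjamini and Hochberg over all tested genes and held under 0.05). The 6 were Col16a1, Col27a1, Col8a1, Col18a1, Col5a3 and Col12a1. Of these, Col8a1 averaged 0.872 FPKM with flavonoids and 2.74 FPKM in untreated cells. It therefore entered this and the later counts of chains through the untreated samples. In whole samples such as these, a smaller number of cells of a type and less RNA per cell cannot be told apart. The median log2 change was -0.39 over the tested chains and -0.02 over all tested genes, and the estimate was negative for 18 chains (85.7%) against 52.6% of all tested genes. Long genes leaned the same way: the median over all tested genes was -0.149 over 6 kb and -0.072 from 4 to 6 kb. Of the 21 chains, 13 and 7 lay in these length classes. All 3 flavonoid samples lay below all 3 untreated samples for 10 chains and above them for 0, where 17.3% of tested genes lay wholly below and 17.0% wholly above. The number of falling chains depended on single libraries. It was 2, 1 and 3 without flavonoid replicates 1, 2 and 3, when 1.03%, 1.81% and 2.4% of all tested genes fell. It was 9, 1 and 6 without untreated replicates 1, 2 and 3, when 7.27%, 0.707% and 6.36% fell. It was 1 without a filter on low values, when 1.46% fell, and 3 with a minimum mean of 5 FPKM, when 5.29% fell, and also 3 on the TPM scale, when 5.23% fell.

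**Figure D1:**
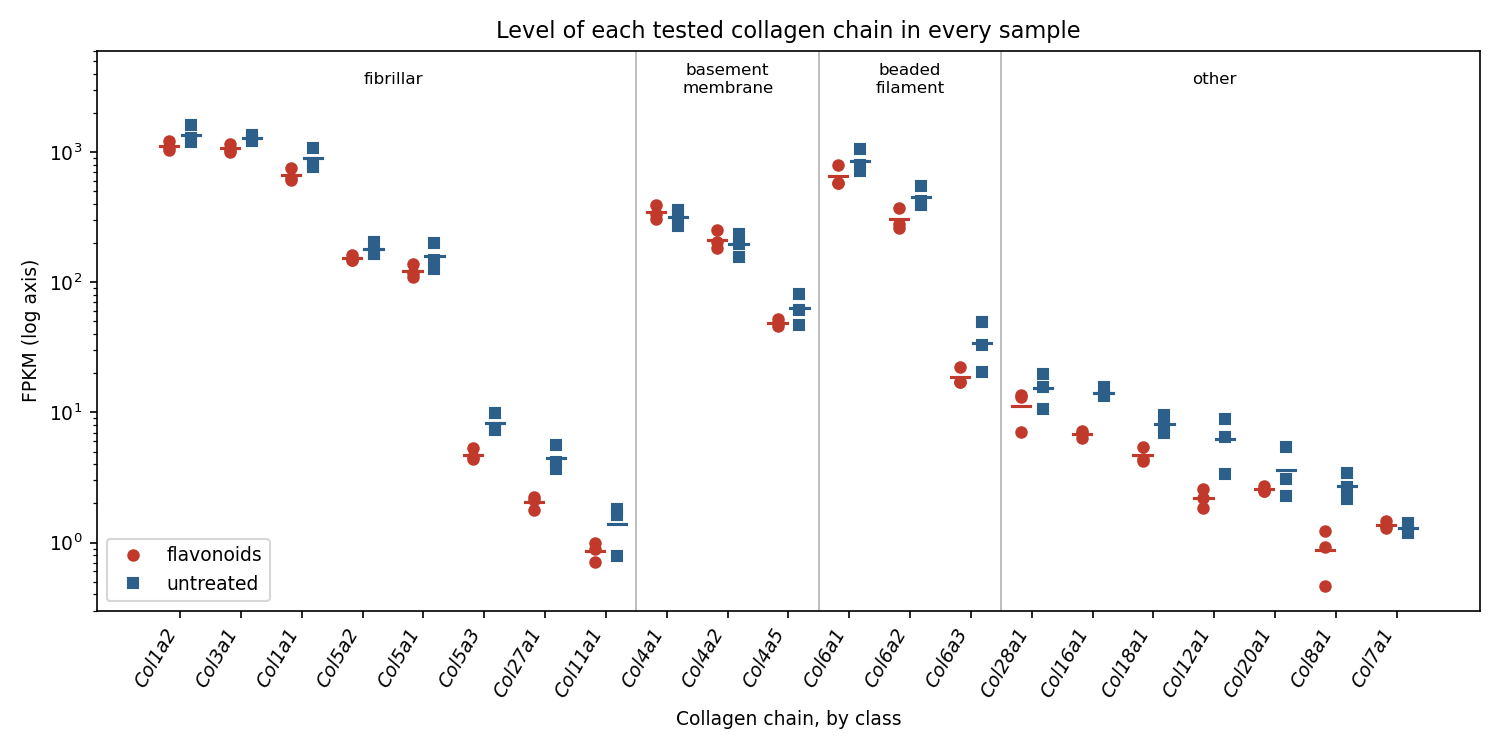
FPKM on a log axis of the 21 tested collagen chains in every sample, grouped by class, with flavonoid-treated samples as circles, untreated samples as squares and group means as lines. The levels span from about 1 FPKM in Col11a1 to 1236.5 FPKM in Col1a2 as means over the 6 samples, and the groups stand apart most clearly in Col16a1.

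The abundant fibrillar chains were lower on average with flavonoids without passing the test. Col1a1, which supplies most of the type I collagen of skin, tendon and bone, was at 628.8, 607.6 and 753.8 FPKM with flavonoids and at 771.1, 830.5 and 1079.7 FPKM in untreated cells. Every flavonoid sample lay below every untreated sample, by a narrow margin between flavonoid replicate 3 and untreated replicate 1. The means were 663.4 ± 79.0 FPKM with flavonoids and 893.8 ± 163.7 FPKM in untreated cells (SD, n = 3 each; log2 change -0.42, 95% interval -0.82 to -0.02, limma adjusted p = 0.166). Its gene lies at chr11:94936224-94953042 (GRCm38, as are all positions). With each library's trend over gene length removed, Col1a1 had a log2 change of -0.35 and passed the test (limma adjusted p = 0.0433). Its partner Col1a2 (chr6:4504814-4541544), the second chain of the type I molecule, was at 1085.7, 1037.2 and 1217.8 FPKM with flavonoids and at 1202.8, 1271.9 and 1603.7 FPKM in untreated cells. There flavonoid replicate 3 overlapped the lowest untreated sample (log2 change -0.28, SE 0.17, limma adjusted p = 0.339). Col3a1, whose chains form type III collagen by themselves and join type I fibres in soft tissue, was at 1001.5, 1040.0 and 1155.8 FPKM with flavonoids and at 1275.7, 1224.3 and 1351.7 FPKM in untreated cells. These groups did not overlap, and the change did not pass the test (log2 change -0.27, SE 0.15, limma adjusted p = 0.288). Col1a2 and Col3a1 were the most abundant chains, and their ranges overlapped each other in both groups.

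Type V collagen sits inside type I fibres and governs their assembly and width. Its main chain Col5a1 (chr2:27886425-28039514) was at 118.1, 110.5 and 138.9 FPKM with flavonoids and at 126.6, 147.6 and 198.7 FPKM in untreated cells, with overlap. Col5a2 (chr1:45374321-45503282) was at 162.6, 147.5 and 148.2 FPKM with flavonoids and at 163.6, 170.8 and 202.9 FPKM in untreated cells, without overlap. Neither passed the test, with log2 changes of -0.34 (SE 0.18, limma adjusted p = 0.256) for Col5a1 and -0.22 (SE 0.13, limma adjusted p = 0.302) for Col5a2. The third chain, Col5a3 (chr9:20770050-20815067), was at 4.35, 4.52 and 5.37 FPKM with flavonoids and at 7.33, 7.53 and 9.94 FPKM in untreated cells. All flavonoid samples lay below all untreated ones, and Col5a3 fell 1.74-fold in mean level (log2 change -0.68, SE 0.15, limma adjusted p = 0.0266). Without untreated replicate 2 its adjusted p was 0.101, and without flavonoid replicates 1 and 2 it was 0.118 and 0.0983. It was 0.0769 without a filter on low values and 0.0542 on the TPM scale. Col27a1 (chr4:63214004-63334991), a fibrillar chain known from developing cartilage, was at 2.23, 2.11 and 1.78 FPKM with flavonoids and at 3.70, 4.15 and 5.61 FPKM in untreated cells. The groups did not overlap, and Col27a1 fell 2.20-fold in mean level (log2 change -0.84, SE 0.16, limma adjusted p = 0.0169). Its adjusted p was 0.0667, 0.059 and 0.0625 without flavonoid replicates 1, 2 and 3, 0.0828 without untreated replicate 2 and 0.0695 without a filter on low values.

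The cartilage chains of the fibrillar class were scarce. Col11a1 (chr3:114030540-114220718) was at 0.892, 0.998 and 0.707 FPKM with flavonoids and at 0.787, 1.62 and 1.80 FPKM in untreated cells, and the groups overlapped (log2 change -0.34, SE 0.20, limma adjusted p = 0.306). Its flavonoid mean was 0.866 FPKM, so it reached the level tested, and the counts of negative estimates, through the untreated samples. Col2a1, the main collagen of cartilage, did not exceed 0.00754 FPKM with flavonoids or 0.0592 FPKM in untreated cells. Col11a2, a partner of Col11a1, and Col24a1, known from developing bone, did not exceed 0.0144 and 0.00552 FPKM with flavonoids or 0.0212 and 0.0108 FPKM in untreated cells. Of 6 cartilage markers, Acan and Hapln1 were listed at 0 in all 6 samples, and Comp, Matn3 and Lect1 averaged under 1 FPKM. Sox9 was at 37.8, 45.8 and 49.4 FPKM with flavonoids and at 46.9, 57.9 and 66.3 FPKM in untreated cells. In the fibrillar class as a whole, 2 of 8 tested chains fell (5.13% of all tested genes did), all 8 estimates were negative (52.6% of all) and the median log2 change was -0.34. Over all tested genes the median was -0.149 in those over 6 kb and -0.072 in those of 4 to 6 kb, the lengths of these chains.

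The promoter windows of the falling chains for which RefSeq gives 1 window are shown because those chains passed the test. Each runs from 250 bases before to 50 bases after the RefSeq start of the gene on GRCm38.p6, 5′ to 3′ along the gene's strand. Capitals mark every CCAAT and every GGGCGG, read on either strand, so that ATTGG and CCGCCC are the same motifs on the other strand. Col16a1 is on the plus strand at chr4:130047590-130047889, Col8a1 on the minus strand at chr16:57754688-57754987, Col27a1 on the plus strand at chr4:63215162-63215461 and Col5a3 on the minus strand at chr9:20815018-20815317.
Col16a1: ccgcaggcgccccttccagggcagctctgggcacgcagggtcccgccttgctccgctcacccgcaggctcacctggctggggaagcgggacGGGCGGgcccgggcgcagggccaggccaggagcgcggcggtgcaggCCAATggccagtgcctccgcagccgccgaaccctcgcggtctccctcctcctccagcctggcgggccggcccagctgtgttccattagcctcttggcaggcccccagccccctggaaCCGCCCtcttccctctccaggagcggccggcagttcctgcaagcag
Col8a1: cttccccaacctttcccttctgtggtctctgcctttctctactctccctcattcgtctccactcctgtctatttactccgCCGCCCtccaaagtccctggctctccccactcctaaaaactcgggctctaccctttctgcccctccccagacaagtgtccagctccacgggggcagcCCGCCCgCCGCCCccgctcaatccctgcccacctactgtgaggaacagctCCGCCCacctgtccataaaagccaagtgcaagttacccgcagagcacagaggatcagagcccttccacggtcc
Col27a1: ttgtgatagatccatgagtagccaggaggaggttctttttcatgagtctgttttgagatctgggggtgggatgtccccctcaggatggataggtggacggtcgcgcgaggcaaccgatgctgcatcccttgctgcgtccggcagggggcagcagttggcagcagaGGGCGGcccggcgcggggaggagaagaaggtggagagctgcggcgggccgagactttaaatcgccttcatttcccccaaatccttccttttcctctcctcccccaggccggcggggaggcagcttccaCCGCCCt
Col5a3: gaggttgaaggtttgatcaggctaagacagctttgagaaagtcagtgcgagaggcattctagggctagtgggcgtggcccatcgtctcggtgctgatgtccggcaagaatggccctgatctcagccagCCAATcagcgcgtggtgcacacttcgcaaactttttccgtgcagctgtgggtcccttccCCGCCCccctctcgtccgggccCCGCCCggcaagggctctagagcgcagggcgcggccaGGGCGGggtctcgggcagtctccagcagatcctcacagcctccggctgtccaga
Col16a1, Col8a1, Col27a1 and Col5a3 held 2, 4, 2 and 3 copies of GGGCGG, and a single CCAAT stood in the windows of Col16a1 and Col5a3. The GGGCGG motif occurred in 23 of the 38 windows that RefSeq gives for 35 of the 44 chains (60.5%), against 35.7% of the 32851 windows of all genes. CCAAT occurred in 13 of the 38 (34.2%), against 37.4% of all windows. A TATAAA box occurred in 5 (13.2%), against 13.6%. The AP-1 palindrome TGANTCA occurred in 1 of the 38 (2.63%), against 7.81% of all windows. The motifs do not overlap one another in the printed windows. Such matches describe letters and do not show binding.

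Of the 6 falling chains 4 belonged to the other types, many of which attach to fibres or to cell surfaces. Col16a1 (chr4:130047840-130099283), a fibril-associated chain found beside fibres and microfibrils in skin and cartilage, was at 6.90, 6.37 and 7.17 FPKM with flavonoids and at 13.7, 13.3 and 15.6 FPKM in untreated cells. The 3 flavonoid samples were close to one another, as were the 3 untreated samples, and the groups stood far apart. Its mean was 6.82 ± 0.407 FPKM with flavonoids and 14.2 ± 1.22 FPKM in untreated cells (SD, n = 3 each), 2.08-fold lower with flavonoids (log2 change -0.96, SE 0.12, limma adjusted p = 0.00431). It was also the chain that passed the test under each of the 19 other settings run for it, with adjusted p from 0.00101 to 0.0378. Col12a1 (chr9:79598991-79718831), which coats the surface of type I fibres, was at 2.56, 2.22 and 1.85 FPKM with flavonoids and at 3.39, 6.42 and 8.95 FPKM in untreated cells. The groups did not overlap, but the untreated samples were far apart, with untreated replicate 1 near the flavonoid samples. Col12a1 fell 2.84-fold in mean level (log2 change -1.11, SE 0.27, limma adjusted p = 0.0369). Its adjusted p was 0.0944, 0.0923 and 0.13 without flavonoid replicates 1, 2 and 3, 0.145 without untreated replicate 2, 0.135 without a filter on low values, 0.0608 on the TPM scale and 0.00199 with the length trend removed.

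Col8a1 (chr16:57624258-57754737) is a short chain that builds hexagonal lattices under the endothelium of vessels and cornea. It was at 1.22, 0.930 and 0.466 FPKM with flavonoids and at 2.15, 2.66 and 3.41 FPKM in untreated cells, and rested on 59 to 440 fragments per library. All flavonoid samples were below all untreated ones, and Col8a1 fell 3.14-fold in mean level (log2 change -1.01, SE 0.20, limma adjusted p = 0.0178). Without untreated replicate 2 its adjusted p was 0.0879, and without flavonoid replicates 2 and 3 it was 0.0555 and 0.0581. Its flavonoid mean was under 1 FPKM, so it reached the level tested through the untreated samples, and without a filter on low values its adjusted p was 0.0725. Its usual partner Col8a2 was at 0.0397, 0.0898 and 0.032 FPKM with flavonoids and at 0.0539, 0.0679 and 0.189 FPKM in untreated cells and was not tested. Col18a1 (chr10:77052178-77166548), a basement membrane collagen that carries sugar side chains and releases the fragment endostatin, was at 4.21, 4.42 and 5.39 FPKM with flavonoids and at 7.0, 7.91 and 9.62 FPKM in untreated cells. The groups did not overlap, and Col18a1 fell 1.75-fold in mean level (log2 change -0.69, SE 0.15, limma adjusted p = 0.0261). Its adjusted p was 0.118 and 0.0976 without flavonoid replicates 1 and 2 and 0.118 without untreated replicate 2. It was 0.0769 without a filter on low values and 0.0538 on the TPM scale.

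Of the remaining tested chains of other types, none passed the test. Col28a1, a type VI-like chain known from peripheral nerve, was at 13.2, 13.7 and 7.12 FPKM with flavonoids and at 10.7, 15.6 and 19.9 FPKM in untreated cells (log2 change -0.42, SE 0.27, limma adjusted p = 0.355). The groups overlapped, and flavonoid replicate 3 alone was low. Col20a1, a fibril-associated chain by its sequence, was at 2.74, 2.47 and 2.47 FPKM with flavonoids and at 2.30, 3.09 and 5.44 FPKM in untreated cells (log2 change -0.32, SE 0.23, limma adjusted p = 0.42). There untreated replicate 3 stood high and the other samples were alike. Col7a1, which forms the anchoring fibrils below the epidermis, was at 1.33, 1.47 and 1.30 FPKM with flavonoids and at 1.19, 1.41 and 1.30 FPKM in untreated cells (log2 change 0.04, 95% interval -0.27 to 0.35, limma adjusted p = 0.875). In this class 4 of 7 tested chains fell, where 5.13% of all tested genes did, and the median log2 change was -0.69. Of the 4, Col8a1 reached the level tested through the untreated samples. The highest chain below the level tested was Col9a3, a cartilage chain, at 0.534, 0.662 and 0.595 FPKM with flavonoids and 0.652, 0.646 and 1.04 FPKM in untreated cells. Of the others, Col14a1 and Col17a1 averaged 0.118 and 0.0898 FPKM with flavonoids and 0.105 and 0.0856 FPKM in untreated cells. Col19a1, Col25a1 and Col26a1 were listed at 0 in every sample, as were Col4a3 and Col6a6 of the classes below.

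In the basement membrane class, which holds type 4 only, none of the 3 tested chains passed the test. Their median log2 change was 0.12. Col18a1, a basement membrane collagen counted here with the other types, fell (limma adjusted p = 0.0261). Col4a1 and Col4a2 wind together into the common type IV molecule. Col4a1 was at 335.3, 308.6 and 390.1 FPKM with flavonoids and at 269.5, 329.0 and 355.7 FPKM in untreated cells. Col4a2 was at 203.5, 182.2 and 250.9 FPKM with flavonoids and at 156.7, 195.7 and 233.4 FPKM in untreated cells. In both genes the groups overlapped and the highest value was that of flavonoid replicate 3. The log2 change was 0.12 (95% interval -0.23 to 0.47, limma adjusted p = 0.666) for Col4a1 and 0.13 (95% interval -0.28 to 0.53, limma adjusted p = 0.697) for Col4a2, intervals that hold changes in either direction. Leaving out 1 library at a time moved the Col4a2 estimate between -0.02 and 0.26, so its sign was not fixed. Col4a5 (chrX:141475385-141689234), a chain of specialised basement membranes such as that of the kidney filter, was at 51.8, 46.5 and 48.3 FPKM with flavonoids and at 47.3, 61.6 and 80.7 FPKM in untreated cells. Its groups overlapped at untreated replicate 1 (log2 change -0.33, SE 0.18, limma adjusted p = 0.276), and without that library it passed the test (log2 change -0.52, limma adjusted p = 0.0404). Col4a6, its neighbour and partner, was at 0.0303 to 0.0721 FPKM with flavonoids and 0.0136 to 0.0714 FPKM in untreated cells. Col4a4 was listed at 0 with flavonoids and did not exceed 0.00477 FPKM in untreated cells.

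Col4a1 (chr8:11198423-11312826, minus strand) and Col4a2 (chr8:11312805-11449287, plus strand) lie head to head, and their annotated ends share 22 bases. Their promoter windows, shown because they lie on the same stretch of DNA, share 78 bases. The first is the minus strand of chr8:11312777-11313076 and the second the plus strand of chr8:11312555-11312854 (RefSeq, GRCm38.p6), with capitals as above.
Col4a1: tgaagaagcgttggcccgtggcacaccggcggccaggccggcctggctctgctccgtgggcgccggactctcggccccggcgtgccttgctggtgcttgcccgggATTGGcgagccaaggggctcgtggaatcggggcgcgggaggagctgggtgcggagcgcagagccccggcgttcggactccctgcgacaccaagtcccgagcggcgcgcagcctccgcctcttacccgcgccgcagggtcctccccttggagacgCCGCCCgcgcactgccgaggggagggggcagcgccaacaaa
Col4a2: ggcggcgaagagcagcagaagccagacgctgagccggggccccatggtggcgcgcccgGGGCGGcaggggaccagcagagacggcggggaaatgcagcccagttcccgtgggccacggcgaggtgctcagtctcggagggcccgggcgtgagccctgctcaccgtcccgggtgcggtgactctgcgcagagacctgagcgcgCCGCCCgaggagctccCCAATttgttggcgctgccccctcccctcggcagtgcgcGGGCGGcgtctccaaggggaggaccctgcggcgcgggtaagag
The Col4a1 window held 1 copy each of CCAAT and of the GGGCGG motif, and the Col4a2 window held 1 and 3 copies. Neither held TATAAA or the AP-1 palindrome. The GGGCGG in the shared stretch is counted in both windows. The ratio of Col4a1 to Col4a2 FPKM was 1.65, 1.69 and 1.55 with flavonoids and 1.72, 1.68 and 1.52 in untreated cells. These ratios overlapped (log2 difference -0.01, exact two-sided permutation p = 0.9, adjusted p = 0.9 over 8 pairs). Whether fragments were counted by strand is not given in the sources used here, so fragments of the shared bases could have gone to either gene.

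The beaded filament chains were lower on average, and none of the 3 tested passed the test, with a median log2 change of -0.58. Col6a1 (chr10:76708792-76726168) was at 574.0, 581.6 and 798.9 FPKM with flavonoids and at 709.7, 796.9 and 1052.6 FPKM in untreated cells, with flavonoid replicate 3 inside the untreated range. Its log2 change was -0.39 (SE 0.20, limma adjusted p = 0.261). Col6a2 (chr10:76595762-76623630) was at 259.0, 280.2 and 373.3 FPKM with flavonoids and at 393.9, 424.1 and 544.8 FPKM in untreated cells. There all flavonoid samples lay below all untreated samples, and the log2 change was -0.58 (95% interval -1.0 to -0.16, limma adjusted p = 0.0841). It passed without untreated replicate 1 (log2 change -0.68, limma adjusted p = 0.0446) and with the length trend removed (log2 change -0.54, limma adjusted p = 0.0226). Col6a3 (chr1:90765923-90843971), the long chain whose tail is released as endotrophin in fat tissue, was at 17.0, 17.1 and 22.2 FPKM with flavonoids and at 20.5, 33.1 and 49.4 FPKM in untreated cells. Untreated replicate 1 lay within the flavonoid range, and the untreated samples were spread widely (log2 change -0.76, 95% interval -1.38 to -0.14, limma adjusted p = 0.115). Without that library Col6a3 passed the test, with a log2 change of -1.08 (limma adjusted p = 0.0099), and with the length trend removed it passed with -0.62 (limma adjusted p = 0.0266). Col6a4, Col6a5 and Col6a6 stayed at or under 0.0553 FPKM in every sample.

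**Figure D2:**
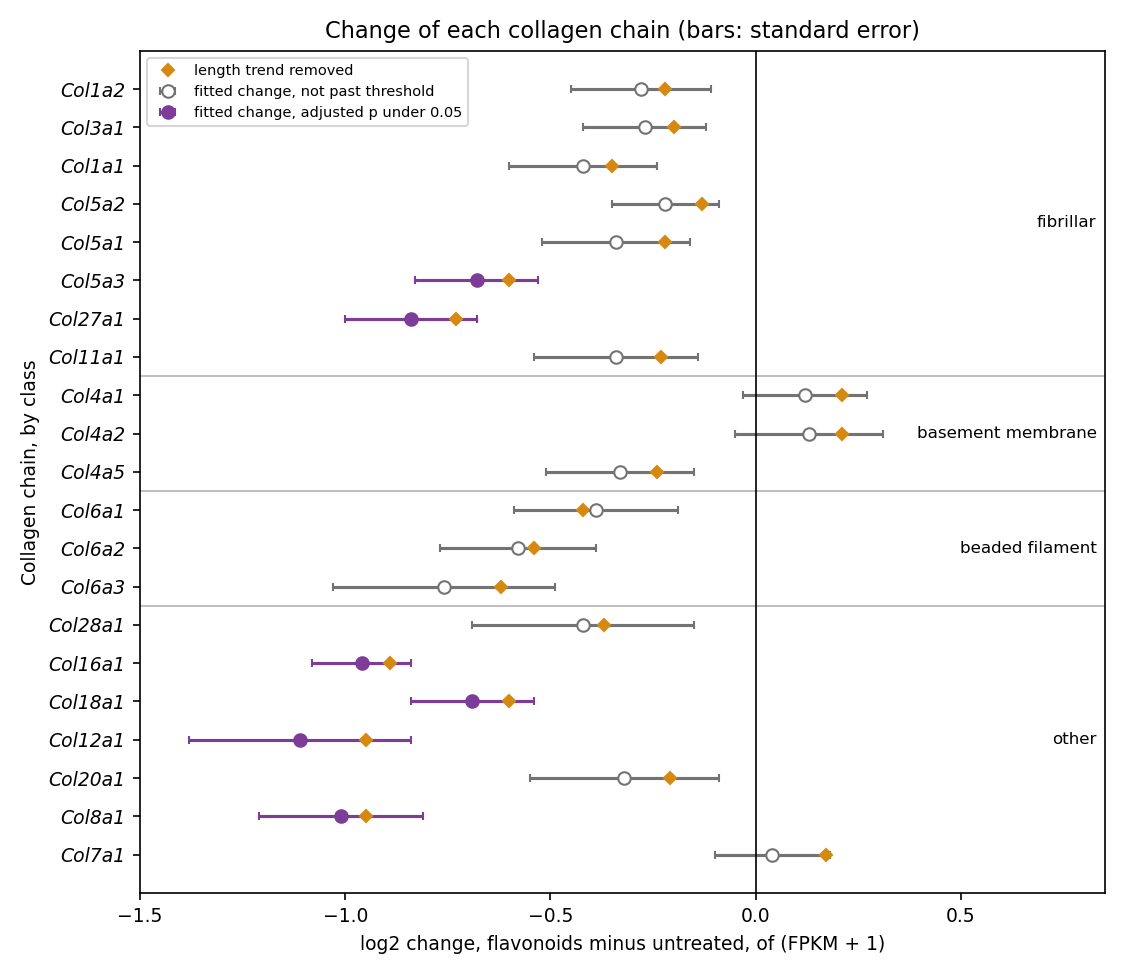
Log2 change of (FPKM + 1), flavonoids minus untreated, of the 21 tested chains by class, with standard errors as bars. Filled circles mark the 6 chains that passed the test, open circles the 15 that did not, and diamonds the change with each library's length trend removed, which is positive for Col4a1, Col4a2 and Col7a1.

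With each library's trend over gene length removed, 9 chains fell and 0 rose, where 10.8% of all tested genes fell and 10.8% rose. The 9 were the 6 named above with Col1a1, Col6a2 and Col6a3. In the fit to the values as deposited, 4 of the 13 tested chains over 6 kb fell, against 2.74% of all tested genes of that length, and 2 of the 7 chains of 4 to 6 kb fell, against 4.56%. All 6 falling chains were of low or middling level, with means of 1.81 to 10.5 FPKM over the 6 samples. None of the 9 chains of at least 100 FPKM was called, their log2 changes ran from -0.58 to 0.13, and their median was -0.28. Over the 12 tested chains under 100 FPKM the median was -0.68. Among all tested genes 4.27% fell and 7.59% rose at 100 FPKM or more, and 5.2% fell and 4.64% rose below that level. Whether change and level are linked among the chains was not tested.

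**Figure D3:**
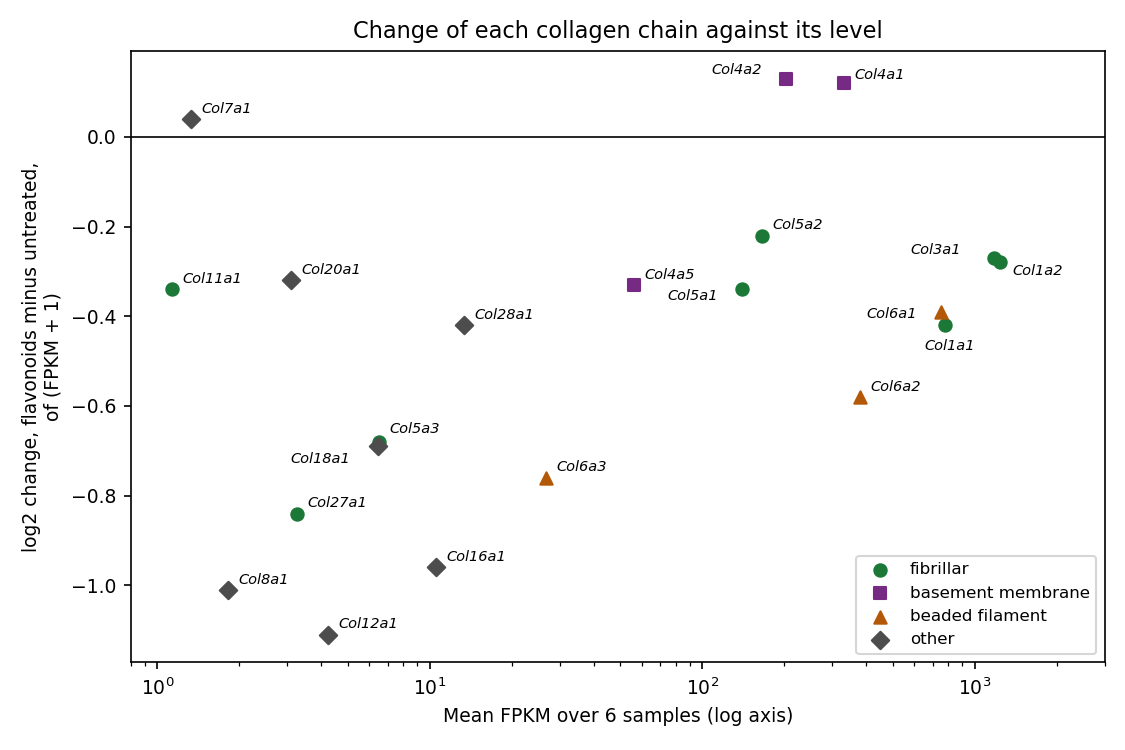
Log2 change of (FPKM + 1), flavonoids minus untreated, of each tested chain against its mean FPKM over the 6 samples on a log axis, with symbols by class. The 9 chains at 100 FPKM or more lie between -0.58 and 0.13, and the 6 that passed the test lie between -1.11 and -0.68 at means of 1.81 to 10.5 FPKM.

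The makeup of the collagen transcripts was described by summing FPKM over all 44 chains. The sums were 4478, 4399.2 and 5332.8 FPKM with flavonoids and 5190.6, 5550.2 and 6836.5 FPKM in untreated cells. Flavonoid replicate 3 lay above untreated replicate 1, so the groups overlapped, and the ratio of the means was 0.808. Collagen was 0.903%, 0.889% and 1.09% of the FPKM of all genes with flavonoids and 0.989%, 1.16% and 1.61% in untreated cells. By class, the ratio of mean sums was 0.804 for fibrillar, 0.726 for beaded filament and 0.581 for other chains, and 1.05 for basement membrane chains. Basement membrane chains made up 13.2%, 12.2% and 12.9% of the collagen FPKM with flavonoids and 9.12%, 10.6% and 9.80% in untreated cells. This share was higher in every flavonoid sample than in every untreated one. Fibrillar chains made up 67.1%, 67.1% and 64.2% with flavonoids and 68.4%, 65.9% and 65.2% in untreated cells, which overlapped. Beaded filament chains took 19.0%, 20% and 22.4% with flavonoids and 21.7%, 22.6% and 24.1% in untreated cells, again with overlap. Chains of other types took 0.737%, 0.738% and 0.5% with flavonoids and 0.798%, 0.926% and 0.961% in untreated cells. Their share was lower in every flavonoid sample than in every untreated one. No test was made of these sums, and the shares within a sample are bound to add up, so a higher share of 1 class goes with a lower share of another.

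**Figure D4:**
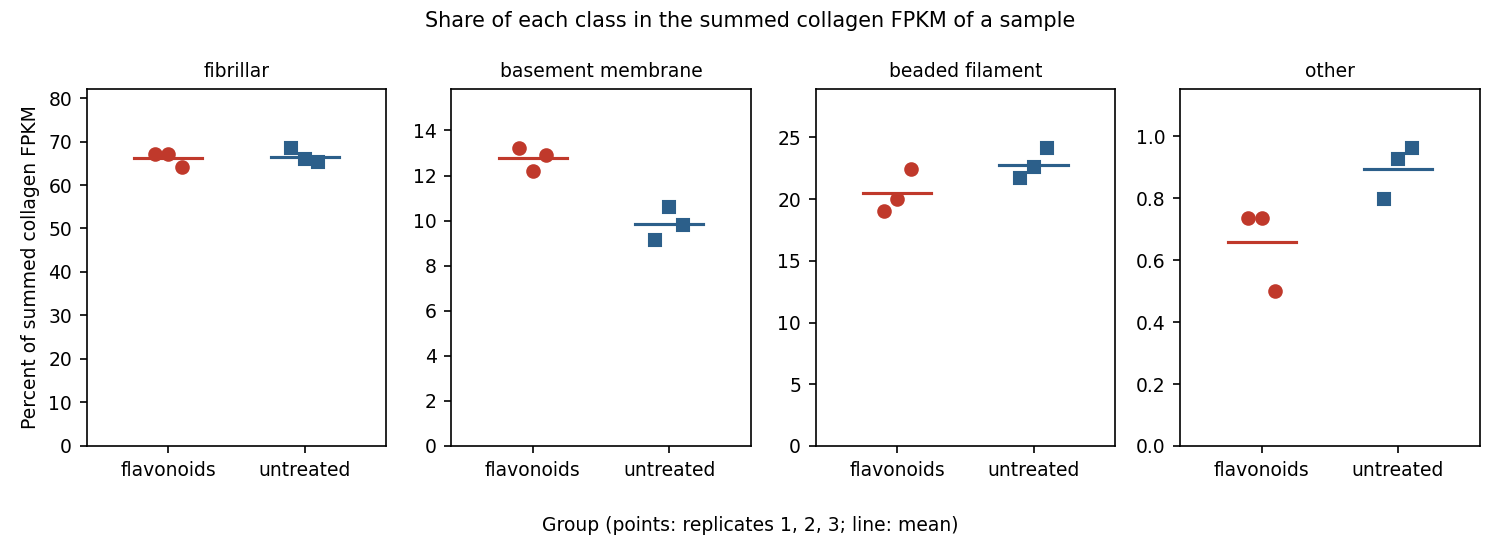
Share of each collagen class in the summed collagen FPKM of a sample, in percent, for the 3 flavonoid-treated samples (circles) and the 3 untreated samples (squares), with group means as lines and a separate axis for each class. The basement membrane share is 12.2% to 13.2% with flavonoids and 9.12% to 10.6% in untreated cells. The share of other types is 0.5% to 0.738% with flavonoids and 0.798% to 0.961% in untreated cells.

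Chains that share a molecule or a fibre, or whose genes are neighbours, were compared within each sample, where library depth cancels. Each library's trend over gene length does not cancel where the 2 chains differ in length, and it was not removed from these ratios. Each of these exact two-sided permutation tests sets 3 samples against 3 and cannot give a p below 0.1. Of the 10 pairs, 8 were tested, with p adjusted over the 8, and Col4a1 with Col1a1 and Col4a2 with Col1a2 were added after their values were seen and are described only. Col1a1 over Col1a2 was 0.579, 0.586 and 0.619 with flavonoids and 0.641, 0.653 and 0.673 in untreated cells. All flavonoid ratios lay below all untreated ratios, although both chains enter the same molecule (log2 difference -0.14, exact permutation p = 0.1, adjusted p = 0.4). Col6a1 over Col6a2 was 2.22, 2.08 and 2.14 with flavonoids and 1.80, 1.88 and 1.93 in untreated cells, and here all flavonoid ratios lay above (log2 difference 0.20, exact permutation p = 0.1, adjusted p = 0.4). Col6a3 over Col6a1 was 0.0296, 0.0295 and 0.0278 with flavonoids and 0.0289, 0.0416 and 0.0469 in untreated cells, and these overlapped (log2 difference -0.41, exact permutation p = 0.3). Col4a1 over Col1a1, basement membrane over fibrillar, was 0.533, 0.508 and 0.518 with flavonoids and 0.349, 0.396 and 0.329 in untreated cells. It was higher in every flavonoid sample, with a 1.45-fold mean ratio (log2 difference 0.54). Col4a2 over Col1a2 was also higher in every flavonoid sample, at 0.187, 0.176 and 0.206 with flavonoids and 0.130, 0.154 and 0.146 in untreated cells (log2 difference 0.41). The pairs Col5a1 with Col5a2, Col3a1 with Col5a2, Col5a1 with Col1a1 and Col3a1 with Col1a1 overlapped between groups, with log2 differences of -0.12, -0.05, 0.08 and 0.15. None of the 8 tested pairs passed the threshold after adjustment.

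**Figure D5:**
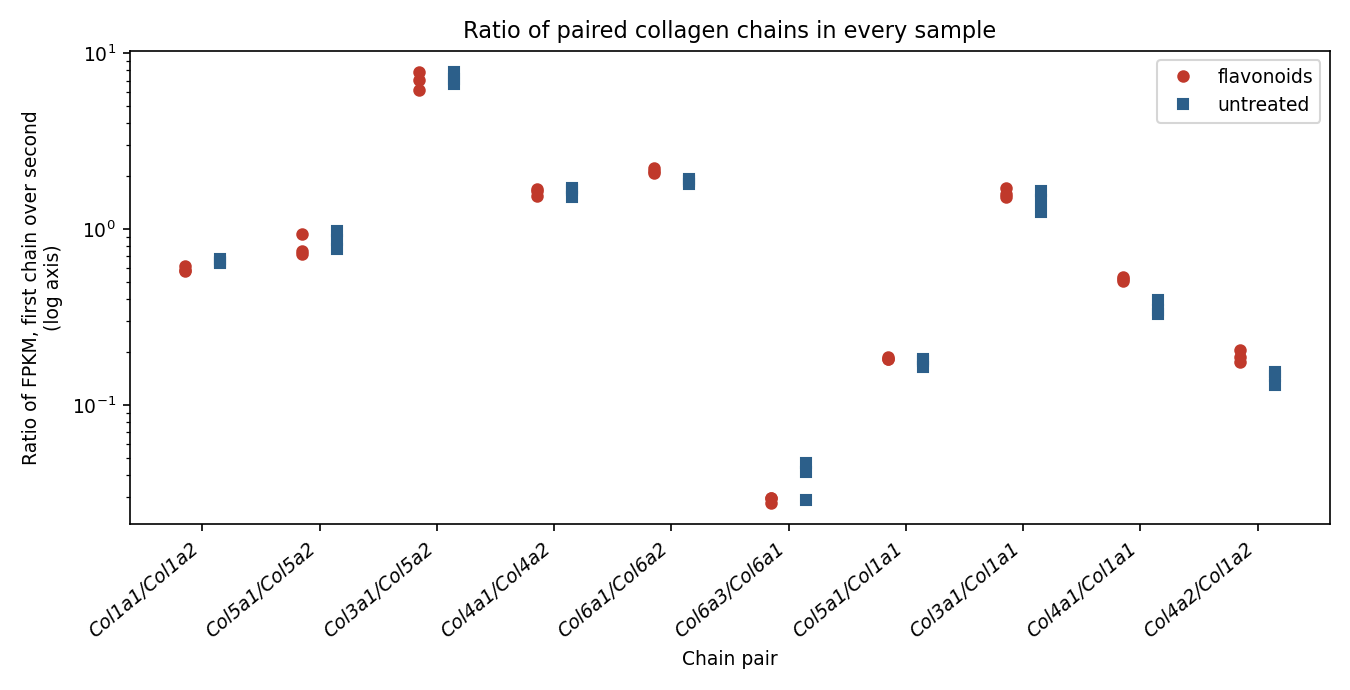
Ratio of the FPKM of paired collagen chains in every sample on a log axis, first chain over second, for 3 flavonoid-treated samples (circles) and 3 untreated samples (squares). The groups do not overlap for Col1a1/Col1a2, Col6a1/Col6a2, Col4a1/Col1a1 and Col4a2/Col1a2.

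Enzymes that modify collagen inside the cell were lower in part. Of 20 tested genes of folding and modification 5 fell and 0 rose, against 5.13% and 4.86% of all tested genes, with a median log2 change of -0.14. P4ha1, a catalytic subunit of the prolyl 4-hydroxylase that stabilises the collagen helix, was at 126.7, 118.4 and 114.1 FPKM with flavonoids and at 204.1, 199.9 and 223.8 FPKM in untreated cells. The groups were far apart, and P4ha1 fell by 0.80 on the log2 scale (SE 0.11, limma adjusted p = 0.00591). Plod2, the lysyl hydroxylase of the telopeptides, averaged 6.28 ± 2.14 FPKM with flavonoids and 17.4 ± 2.78 FPKM in untreated cells (SD, n = 3 each; log2 change -1.38, limma adjusted p = 0.0101). Also lower were P3h2, a prolyl 3-hydroxylase, P4ha3, another prolyl 4-hydroxylase subunit, and Plod1, the lysyl hydroxylase of the helix, with log2 changes of -1.25, -0.99 and -0.57 (limma adjusted p = 0.0169, 0.0204 and 0.0269). Without untreated replicate 2 the adjusted p was 0.0568 for Plod2, 0.0879 for P3h2, 0.101 for P4ha3 and 0.135 for Plod1. Without flavonoid replicate 1 it was 0.0792 for P3h2, 0.0758 for P4ha3 and 0.127 for Plod1, and without replicate 3 it was 0.0711, 0.0715 and 0.0565 for these. Plod1 was at 0.0993 without flavonoid replicate 2 and at 0.0526 on the TPM scale. Without a filter on low values the adjusted p was 0.0528 for Plod2, 0.0712 for P3h2, 0.0848 for P4ha3 and 0.0592 for Plod1. P3h2 averaged 0.403 FPKM with flavonoids and 2.42 FPKM in untreated cells, and so reached the level tested through the untreated samples. P4hb, the partner subunit of the prolyl 4-hydroxylases, averaged 639.9 FPKM with flavonoids and 592.4 FPKM in untreated cells (limma adjusted p = 0.655). Serpinh1, the collagen chaperone HSP47, averaged 1045.5 FPKM with flavonoids and 866.4 FPKM in untreated cells (limma adjusted p = 0.272).

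Of 15 tested genes of export, cleavage and crosslinking 3 fell and 0 rose, against 5.13% and 4.86% of all tested genes, with a median log2 change of -0.15. Lox, the lysyl oxidase that starts collagen crosslinks, was at 491.5, 525.9 and 359.0 FPKM with flavonoids and at 918.2, 1156.6 and 1324.5 FPKM in untreated cells, without overlap (log2 change -1.31, SE 0.20, limma adjusted p = 0.00772). Pcolce2, an enhancer of procollagen trimming, was at 2.98, 4.16 and 5.67 FPKM with flavonoids and at 13.4, 13.9 and 10.5 FPKM in untreated cells (log2 change -1.39, SE 0.20, limma adjusted p = 0.00591). Loxl3, a relative of Lox, averaged 17.0 FPKM with flavonoids and 23.2 FPKM in untreated cells (log2 change -0.42, limma adjusted p = 0.0483). Lox missed the threshold without untreated replicate 2 (limma adjusted p = 0.0568). Loxl3 missed it without any 1 of 5 libraries, with adjusted p of 0.149, 0.19 and 0.0847 without flavonoid replicates 1, 2 and 3 and of 0.212 and 0.0631 without untreated replicates 2 and 3. It also missed it with median-ratio scaling (0.0881), on the TPM scale (0.0745) and without a variance trend (0.0616). Without a filter on low values Loxl3 was at 0.0608, and with the replicate number as a block at 0.104.

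Among 11 tested receptors and enzymes of breakdown, 2 rose and 2 fell, against 4.86% and 5.13% of all tested genes, with a median log2 change of -0.04. Ctsk, the lysosomal collagenase cathepsin K, was at 53.3, 52.9 and 46.3 FPKM with flavonoids and at 26.8, 22.0 and 20.9 FPKM in untreated cells (log2 change 1.10, SE 0.13, limma adjusted p = 0.00353). Mmp2, the gelatinase that cleaves denatured and type IV collagen, was at 1165.3, 1133.1 and 1377.8 FPKM with flavonoids and at 633.2, 635.3 and 730.0 FPKM in untreated cells (log2 change 0.88, SE 0.15, limma adjusted p = 0.0117). Both rose with no overlap between groups, while the other gelatinase, Mmp9, fell and averaged 0.15 FPKM with flavonoids and 1.97 FPKM in untreated cells (log2 change -1.36, limma adjusted p = 0.00293). Itga1, the collagen-binding integrin subunit with a preference for type IV, averaged 0.709 FPKM with flavonoids and 2.38 FPKM in untreated cells (log2 change -0.96, limma adjusted p = 0.0169). The adjusted p of Mmp2 was 0.0964 without untreated replicate 2 and 0.0621 and 0.0531 without flavonoid replicates 1 and 2. That of Itga1 was 0.0862 without untreated replicate 2 and 0.0712, 0.0526 and 0.0682 without flavonoid replicates 1, 2 and 3. Without a filter on low values Mmp2 was at 0.0585 and Itga1 at 0.0642. Mmp9 and Itga1 averaged under 1 FPKM with flavonoids and reached the level tested through the untreated samples. Mmp13, a collagenase, had the higher level with flavonoids, at 1.64, 1.04 and 1.15 FPKM against 0.288, 0.304 and 0.237 FPKM in untreated cells, and its mean was under the level tested.

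Of 27 tested regulators of collagen gene transcription 4 fell and 1 rose, against 5.13% and 4.86% of all tested genes, with a median log2 change of -0.07. Tgfb3, a transforming growth factor of the family that induces fibrillar collagen, was at 15.9, 16.9 and 18.5 FPKM with flavonoids and at 26.2, 28.6 and 29.1 FPKM in untreated cells (log2 change -0.68, SE 0.11, limma adjusted p = 0.0101). The matricellular protein gene Ctgf and the transcription factor genes Twist1 and Ets1 fell by 0.50, 0.65 and 0.56 on the log2 scale (limma adjusted p = 0.033, 0.025 and 0.0402). Cebpb, a transcription factor of early fat cell differentiation, rose and averaged 230.3 ± 12.7 FPKM with flavonoids and 151.3 ± 21.1 FPKM in untreated cells (SD, n = 3 each; log2 change 0.61, limma adjusted p = 0.0271). Without untreated replicate 2 none of the 5 passed, with adjusted p of 0.0791 for Tgfb3, 0.184 for Ctgf, 0.138 for Twist1, 0.184 for Ets1 and 0.123 for Cebpb. Leaving out flavonoid replicate 1 gave 0.0638, 0.114, 0.111, 0.163 and 0.128 in the same order, and flavonoid replicate 2 gave 0.0539, 0.148, 0.0757, 0.0906 and 0.101. For the last 4 the values without flavonoid replicate 3 were 0.061, 0.0803, 0.0992 and 0.0707, and Ets1 was at 0.0567 without untreated replicate 3. Without a filter on low values the 4 were at 0.0502, 0.0694, 0.0924 and 0.0689. With median-ratio scaling Ctgf was at 0.0531 and Ets1 at 0.0513, and Ets1 was at 0.0717 on the TPM scale.

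Of 8 fibroblast and preadipocyte markers 3 fell and 0 rose, against 5.13% and 4.86% of all tested genes, with a median log2 change of -0.55, and their summed level was 757.5 to 934.6 FPKM with flavonoids and 1373.2 to 1449.1 FPKM in untreated cells. Dcn, the fibril-binding proteoglycan decorin, was at 340.3, 387.6 and 219.7 FPKM with flavonoids and at 717.3, 647.4 and 648.6 FPKM in untreated cells (log2 change -1.12, SE 0.21, limma adjusted p = 0.0142). Lum, its relative lumican, and Thy1, a surface protein of fibroblasts, fell by 1.77 and 0.64 on the log2 scale (limma adjusted p = 0.0018 and 0.0118). The adjusted p of Dcn was 0.078 without untreated replicate 2 and 0.0575 without flavonoid replicate 1, and that of Thy1 was 0.0821 without untreated replicate 2 and 0.0797 and 0.0598 without flavonoid replicates 1 and 2. The other 5 did not pass the test, with log2 changes of -0.46 for Pdgfra, -0.40 for Fbn1, -0.66 for Dlk1, -0.35 for Ly6a and 0.16 for Pdgfrb. Without a filter on low values the adjusted p of Dcn was 0.0671. What part these markers have in the collagen result was not tested. Few markers of other cell types reached the level tested: 3 of smooth muscle, 1 each of osteoblasts, chondrocytes and macrophages, and 0 of endothelium and epithelium, and none of those tested was called. The summed level was 330.3 to 383.6 FPKM with flavonoids and 275.8 to 397.3 FPKM in untreated cells over 5 smooth muscle markers. It was 257.7 to 407.0 FPKM with flavonoids and 320.7 to 342.0 FPKM in untreated cells over 6 osteoblast markers, with Ibsp listed at 0 throughout. For 6 chondrocyte markers it was 38.7 to 49.7 FPKM with flavonoids and 47.8 to 68.0 FPKM in untreated cells. Acta2 made up most of the smooth muscle sum, Spp1 nearly all of the osteoblast sum and Sox9 most of the chondrocyte sum. These sums therefore describe single genes rather than cell types. Endothelial markers summed to 0.281 to 0.384 FPKM with flavonoids and 0.258 to 0.418 FPKM in untreated cells, with Cdh5 and Kdr at 0. Macrophage markers summed to 1.92 to 2.62 FPKM with flavonoids and 1.87 to 3.50 FPKM in untreated cells, with Ptprc at 0. Epithelial markers summed to 0.112 to 0.155 FPKM with flavonoids and 0.45 to 0.762 FPKM in untreated cells, with Epcam, Krt18 and Krt14 at 0. Most of that sum was Krt8, untested at 0.111, 0.146 and 0.112 FPKM with flavonoids and 0.752, 0.45 and 0.702 FPKM in untreated cells.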

How the data were processed

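Messenger RNA of 3 flavonoid-treated and 3 untreated 3T3-L1 samples was analysed from the table of FPKM values that the authors deposited, with 1 column per sample. FastQC, HISAT2 and the build mm10 are named per the submitters' processing notes, without versions. No source used here states how fragments were counted, on which annotation, or whether strand was used. Whole fragments were solved from the steps between FPKM values for 100% of the 22235 genes above 0 (tolerance 0.005 fragments). The smallest whole numbers that fitted were kept, so numbers that share a divisor come out too low, with too short a gene length. Col6a1 may be such a gene, with a solved length of 2002.5 bases against 4380 annotated exon bases. The fragments speak to counting error only, and the solved lengths set the length classes and the length trend.

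Groups were compared with limma 3.58.1 (R 4.3.3), fitted with an intensity trend to log2(FPKM + 1) of the 11464 genes that averaged at least 1 FPKM. All p-values are two-sided, were adjusted over all of these by the Benjamini-Hochberg method and had a threshold of 0.05. Fold changes on that scale understate the change of low genes. Chain ratios were compared by exact permutation (scipy 1.17.1). Tables and figures were made in Python 3.11.15 (pandas 2.3.3, matplotlib 3.10.9). On 5 simulated sets of 11464 genes the comparison recovered 52.8%, 97.6%, 100% and 99.6% of genes given a change of 1.5, 2, 3 and 4 times, and unchanged genes were 7.42% of the calls. The sets were drawn gene by gene with 1 spread common to all genes and without a length trend between libraries. The real libraries had such a trend, so these rates need not hold for them.

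Every chain with a mean of at least 1 FPKM is named with its values. Lower chains are named where a partner was tested or where they rank highest. Other chains under that level, and Mmp13 and the uncalled cell type markers, were named after their values were seen. Of the lists of modification, export, breakdown and regulation, at most 5 called members each are named, with members of the same step. The chains, the lists and the tests were chosen with earlier results of these data known, and support nothing independently. Gene positions come from GENCODE M21 and promoter windows from RefSeq. Alternatives were other pseudocounts (0.1 and 5), filters, scalings and variance estimates, voom on recovered fragments, removal of each library's length trend (loess, span 0.5), the replicate block, and each library left out.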

Additional observations from a re-analysis of the deposited data

How the results depend on the processing

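Against 6 falling collagen chains (2 fibrillar, 0 beaded filament, 4 of other types), 557 genes higher and 588 lower, the values were as follows. No filter on low values gave 1 chain (0 fibrillar, 1 other), with 317 genes higher and 324 lower. A minimum mean of 5 FPKM and the TPM scale each gave 3 chains (1 fibrillar, 2 other). The minimum leaves out Col8a1, Col12a1 and Col27a1 by its own construction, and for the others the cause was not tested. Removing the length trend gave 2 beaded filament chains, with 1238 genes higher and 1240 lower. Leaving out 1 library at a time gave 1 to 9 falling chains (fibrillar 0 to 2, basement membrane 0 to 1, beaded filament 0 to 2, other 1 to 4), 65 to 876 genes higher and 81 to 833 lower. It moved the log2 change of Col4a2 between -0.02 and 0.26, the ratio difference of Col3a1 over Col5a2 between -0.13 and 0.04 and that of Col4a1 over Col4a2 between -0.06 and 0.03, so these directions were not stable. No collagen chain was called higher in any setting run.

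The deviations of same-numbered samples of the groups correlated at -0.143, -0.117 and -0.203, and no sample correlated best with its own number. Deviations within a group cancel out and carry each library's length trend, so these values cannot show whether samples were paired. With the replicate block 3 chains fell (1 fibrillar, 2 other), with 220 genes higher and 237 lower. Col12a1, Col8a1 and Col27a1 missed the threshold there (limma adjusted p = 0.0899, 0.0764 and 0.066). So did P4ha3, Loxl3, Itga1, Ctgf, Twist1, Ets1 and Cebpb (limma adjusted p = 0.0699, 0.104, 0.066, 0.0901, 0.0579, 0.0557 and 0.052). The block with the length trend removed gave 10 falling chains (3 beaded filament), with 969 genes higher and 966 lower. Col6a1 was among these chains (limma adjusted p = 0.0237), and its solved length may be too short. Depth limits Col8a1 most among the falling chains, at 59 to 440 fragments per library.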
